A study of Rattus norvegicus with 40 samples.

Results

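The genes of the major histocompatibility complex (MHC), which carries the name RT1 in the rat, and of antigen presentation were followed through liver carcinogenesis induced by diethylnitrosamine (DEN), a toxic nitrosamine that damages DNA in the liver. The members were every row of the gene counts whose symbol begins with RT1-, and 15 named genes of the pathway. The rule uses no measured value, although it was set with results of these data known. Nlrc5, the transactivator of class I genes, was among the named genes and was not analysed here. This left 63 of the 17337 counted genes, of which 39 were class I rows (RT1-A, RT1-C/E, RT1-M, RT1-N, RT1-O, RT1-S and RT1-T), 10 were class II rows (RT1-B, RT1-D and RT1-H), 11 were partners of class I and 3 were partners of class II. Of these members, 44 had enough counts to be tested in at least 1 comparison. The other 19, 15 of class I and 4 of class II, reached at most 12 counts in any library, and 8 of them had no count at all.

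The 40 libraries came from 24 male Fischer 344 rats, an inbred strain, that were 7 weeks old at the first injection. DEN-treated rats received 50 mg/kg by intra-peritoneal injection once a week, for 8 weeks, for 14 weeks, or for 14 weeks with a further 6 weeks free of injections (20 weeks). Untreated rats of matching age (no DEN) were the controls at each time, with 4 rats in each of these 6 sets. Non-tumoral (NT) liver was sequenced from every DEN-treated rat, and 2 tumor nodules were taken from each rat at 14 and 20 weeks, which gave 8 groups: no DEN liver and NT liver at 3 times and nodules at 2 times. The NT liver and nodules of a rat share the animal, the rat is the replicate, and the 2 nodules of a rat were added for the tests and averaged for the levels. Rats carry the letter F or H in their names, a difference the labels do not explain. All 4 F rats were DEN-treated (F09 and F10 at 8 weeks, F06 at 14 weeks and F03 at 20 weeks).

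Class I molecules are made of an MHC heavy chain and B2m, and they show peptides from inside the cell to CD8+ T cells and natural killer cells on nearly every nucleated cell. The peptides are cut by the proteasome, in which Psmb8, Psmb9 and Psmb10 replace the constitutive catalytic subunits to form the immunoproteasome. They are then carried into the endoplasmic reticulum by Tap1 and Tap2, trimmed by Erap1, and loaded with the help of Tapbp, Calr, Canx and Pdia3. Class II molecules pair an alpha and a beta chain (RT1-Ba with RT1-Bb, RT1-Da with RT1-Db1) and show peptides from taken-up proteins to CD4+ T cells. They are mostly made by dendritic cells, macrophages and B cells, while hepatocytes normally make little. The invariant chain Cd74 escorts class II molecules, Ctss cuts Cd74 in endosomes, RT1-DM and RT1-DO edit the loaded peptide, and Ciita is the coactivator that class II promoters depend on.

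Class II genes share a promoter with an X box and a Y box upstream of the start, so the 200 bases before the start of the class II genes that carried the signal are shown here, with RT1-A2, RT1-S3 and RT1-M5 as class I genes of which the first passed no test, the second fell and the third rose. The sequences are from RefSeq on the build GRCr8, which differs from the build of the counts (rn6), and are given 5′ to 3′ on the strand of the gene. Capitals mark matches to the Y box core (CTGATTGG, or CCAATCAG where it lies on the opposite strand), the X box core (AGNAACNGA) and the core of an interferon response element (TTCNNTTTC). The positions were chr20:4576857-4577056 (plus strand) for RT1-Ba, chr20:4604119-4604318 (minus strand) for RT1-Bb, chr20:4515215-4515414 (plus strand) for RT1-Da and chr20:4560163-4560362 (minus strand) for RT1-Db1. Those of class I were chr20:4872671-4872870 (plus strand) for RT1-A2, chr20:2675328-2675527 (plus strand) for RT1-S3 and chr20:1554016-1554215 (minus strand) for RT1-M5.
RT1-Ba: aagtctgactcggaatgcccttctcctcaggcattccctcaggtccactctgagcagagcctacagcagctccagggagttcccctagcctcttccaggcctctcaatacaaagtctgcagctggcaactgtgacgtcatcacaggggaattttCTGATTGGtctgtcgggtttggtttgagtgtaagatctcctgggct
RT1-Bb: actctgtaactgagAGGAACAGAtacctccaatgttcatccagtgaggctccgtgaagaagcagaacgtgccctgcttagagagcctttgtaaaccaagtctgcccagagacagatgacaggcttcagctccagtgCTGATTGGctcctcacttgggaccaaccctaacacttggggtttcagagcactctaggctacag
RT1-Da: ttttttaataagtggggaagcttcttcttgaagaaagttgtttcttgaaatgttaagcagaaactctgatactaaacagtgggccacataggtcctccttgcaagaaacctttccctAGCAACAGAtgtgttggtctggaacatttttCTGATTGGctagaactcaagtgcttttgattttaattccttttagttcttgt
RT1-Db1: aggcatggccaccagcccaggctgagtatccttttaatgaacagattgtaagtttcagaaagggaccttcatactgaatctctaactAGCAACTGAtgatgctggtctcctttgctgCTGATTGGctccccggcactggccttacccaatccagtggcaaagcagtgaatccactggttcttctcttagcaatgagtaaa
RT1-A2: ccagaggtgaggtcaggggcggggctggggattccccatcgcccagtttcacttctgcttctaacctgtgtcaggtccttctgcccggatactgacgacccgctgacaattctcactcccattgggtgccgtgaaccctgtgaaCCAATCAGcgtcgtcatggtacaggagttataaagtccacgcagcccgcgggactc
RT1-S3: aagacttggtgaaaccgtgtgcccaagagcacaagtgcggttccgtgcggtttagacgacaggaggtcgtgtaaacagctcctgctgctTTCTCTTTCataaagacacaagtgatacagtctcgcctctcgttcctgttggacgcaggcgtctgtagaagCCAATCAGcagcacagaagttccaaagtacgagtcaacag
RT1-M5: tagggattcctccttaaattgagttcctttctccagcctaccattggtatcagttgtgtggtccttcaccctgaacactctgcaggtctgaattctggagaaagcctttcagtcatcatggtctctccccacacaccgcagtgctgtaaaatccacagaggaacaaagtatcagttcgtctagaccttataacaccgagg

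Both strands of the RefSeq promoters, from 250 bases before the start to 50 bases after it, were searched, and 52 of the 63 members had one. The Y box core was in 7 of 9 class II promoters, in 12 of 32 class I promoters and in 3.5% of all 33469 promoters. The X box core was in 7 of 9 class II promoters, in 2 of 32 class I promoters and in 5.28% of all promoters. No order or spacing of the 2 cores was required. In RT1-DOa and RT1-Ha the X box core match lay on the opposite strand, nearer the start than the Y box core. Among the promoters shown above, that of RT1-Da holds the X box core at base -83 and the Y box core at base -52 from the start. That of RT1-Db1 holds them at bases -113 and -83. That of RT1-Bb holds a match to the X box core at base -186, farther from its Y box core at -64. That of RT1-Ba holds the Y box core at base -46 with no match to the X box core. The interferon response core was in 0 of 9 class II promoters, 3 of 32 class I promoters, 6 of 9 promoters of class I partners (B2m, Psmb8, Psmb10, Tap1, Tap2 and Tapbp) and 9.71% of all promoters. The gamma-activated site TTCNNNGAA was in 0 of 9 class II, 2 of 32 class I and 8.87% of all promoters. A match is a description of the letters and was not tested as a binding site, and matches of different motifs could share bases.

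Between 20528515 and 160622633 read pairs were counted to genes per library (median 30477421), and the highest total, in the NT liver of H26 at 20 weeks, was 4.08 times the next. Between 12089 and 13522 genes had a count. The share of pairs outside annotated genes was 21.5% to 34.5%, the highest in nodule 1 of F06, and the share that aligned to several places and was dropped was 7.96% to 16.3%, the highest in nodule 1 of F03. Albumin, the main hepatocyte transcript, held 10.4% to 19.0% of the counts. RT1 copies resemble each other and the reads were aligned to the genome of another strain, so pairs that fit several copies were lost and the division of class I counts among single rows is uncertain. The sum over a class is less open to this than a single row, but it also misses the dropped pairs.

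Class II transcripts were about 3 to 4 times as abundant in DEN-treated livers and nodules as in no DEN livers, with a smaller ratio in NT liver at 20 weeks once 1 rat (H28) was left out, while the class I sum was 0.814 to 1.03 times that of no DEN livers. Levels are CPM, the counts of a gene scaled to a fixed library total after TMM normalization, and they cannot be compared between genes of different length. At 8 weeks the class II sum was 319, 226, 171 and 185 CPM in the no DEN livers and 738, 855, 467 and 703 CPM in the NT livers, a ratio of the means of 3.07. At 14 weeks it was 118, 154, 173 and 185 CPM without DEN and 682, 484, 466 and 360 CPM in NT liver, a ratio of 3.17. Every NT liver was above every no DEN liver at these times. At 20 weeks it was 259, 163, 121 and 128 CPM without DEN and 445, 191, 241 and 1130 CPM in NT liver, a ratio of 2.99. Here the groups overlapped, and a single rat, H28, stood far above the other 3. Without H28 the NT mean was 292 ± 134 CPM (SD, n = 3) and the ratio 1.74. The nodules had 650 ± 269 CPM at 14 weeks and 663 ± 417 CPM at 20 weeks (SD over 4 rats), 4.13 and 3.95 times the no DEN mean, and every rat was above every no DEN rat. Without H28 the ratio for nodules at 20 weeks was 2.78. In bulk tissue, fewer cells of a type and less RNA per cell cannot be told apart.

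The class I sum was 1147 ± 73.0 CPM without DEN and 1135 ± 74.8 CPM in NT liver at 8 weeks, 1124 ± 54.7 and 995 ± 87.7 CPM at 14 weeks, and 1061 ± 39.4 and 1093 ± 148 CPM at 20 weeks (SD, n = 4 rats each). Its ratios of the means were 0.989, 0.886 and 1.03, and the groups overlapped at each time. In nodules it was 915 ± 65.2 CPM at 14 weeks, with every rat below every no DEN rat (ratio 0.814), and 1032 ± 103 CPM at 20 weeks (ratio 0.973). RT1-S3 held 25.4% of the class I counts. Leaving it out turned the log2 difference from -0.30 to 0.04 in nodules, and from -0.18 to 0.11 in NT liver at 14 weeks. The log2 ratio of the class II to the class I sum within a library was higher than in no DEN liver by 1.64, 1.82 and 1.25 in NT liver at 8, 14 and 20 weeks and by 2.27 and 1.90 in nodules at 14 and 20 weeks. Without H28 the value for NT liver at 20 weeks was 0.78. These sums were not tested, since the members were chosen with results of these data known.

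**Figure D1:**
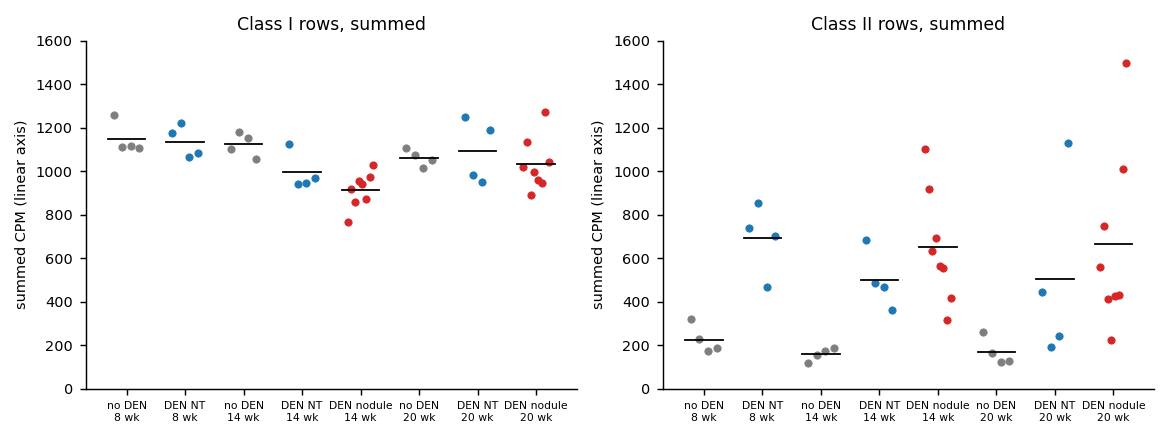
Summed class I (left) and class II (right) levels in CPM on linear axes, with a point for each library and a line for the mean over 4 rats of a group, in grey for no DEN liver, blue for NT liver and red for nodules at 8, 14 and 20 weeks. The class I sums lie between 768 and 1272 CPM in every group, while the class II sums reach 319 CPM without DEN and up to 1498 CPM with DEN.

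RT1-Db1, RT1-Ba, RT1-Da and RT1-Bb held 99.7% of the class II counts. RT1-Da, an alpha chain, had 88.8, 62.7, 47.1 and 51.9 CPM without DEN and 184, 231, 120 and 188 CPM in NT liver at 8 weeks. At 14 weeks the values were 30.1, 41.1, 44.9 and 49.3 CPM without DEN and 184, 137, 130 and 106 CPM in NT liver. At 20 weeks they were 65.2, 41.1, 31.9 and 36.1 CPM without DEN and 114, 50.3, 67.0 and 279 CPM in NT liver, of which only H25 lay within the range of the controls. RT1-Da rose in NT liver by 1.52 ± 0.23 on the log2 scale at 8 weeks (SE; adjusted p = 0.00112, edgeR) and by 1.76 ± 0.19 at 14 weeks (adjusted p = 0.000114). At 20 weeks the estimate of 1.56 ± 0.59 did not pass (adjusted p = 0.0943), and it was 0.81 without H28. In the 8 nodules the lowest, median and highest values were 91.9, 170 and 294 CPM at 14 weeks and 62.4, 132 and 379 CPM at 20 weeks. The rises over no DEN liver were 2.09 ± 0.29 (adjusted p = 0.000365) and 1.94 ± 0.39 (adjusted p = 0.00237).

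RT1-Ba, the alpha chain of the other class II pair, followed with 81.8, 56.3, 45.9 and 48.6 CPM without DEN and 197, 214, 129 and 187 CPM in NT liver at 8 weeks. At 14 weeks it had 30.8, 39.6, 45.4 and 49.2 CPM without DEN and 182, 136, 131 and 93.0 CPM in NT liver. At 20 weeks the no DEN livers had 74.2, 44.1, 34.2 and 33.5 CPM and the NT livers 120, 52.6, 67.7 and 331 CPM. The groups were apart at 8 and 14 weeks and overlapped at 20 weeks, where F03 and H28 alone exceeded every control. The nodules ran from 83.5 through a median of 166 to 304 CPM at 14 weeks and from 61.5 through 136 to 433 CPM at 20 weeks. Differences in NT liver were 1.64 ± 0.20, 1.72 ± 0.21 and 1.63 ± 0.65 on the log2 scale, of which the first and the second passed (edgeR adjusted p = 0.000353, 0.000224 and 0.109). Without H28 the value at 20 weeks was 0.77. Those in nodules, 2.07 ± 0.30 and 1.97 ± 0.44, both passed (adjusted p = 0.000536 and 0.00449). The beta chains RT1-Bb and RT1-Db1 rose in the same 4 comparisons, by 1.65, 1.63, 1.92 and 1.92 for RT1-Bb and by 1.66, 1.57, 1.95 and 1.96 for RT1-Db1 on the log2 scale.

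Cd74, the invariant chain, had 244, 173, 129 and 150 CPM without DEN and 528, 590, 318 and 512 CPM in NT liver at 8 weeks. At 14 weeks the controls had 96.5, 121, 130 and 138 CPM and the NT livers 458, 348, 328 and 246 CPM. Every NT liver exceeded every control at these times. At 20 weeks the controls had 190, 127, 91.1 and 92.5 CPM and the NT livers 331, 148, 180 and 819 CPM, so that H25 and H26 lay within the range of the controls. The lowest, median and highest nodules were at 219, 427 and 769 CPM at 14 weeks and at 173, 384 and 1309 CPM at 20 weeks. Cd74 rose by 1.47 ± 0.22 at 8 weeks (edgeR adjusted p = 0.00102) and by 1.51 ± 0.18 at 14 weeks (adjusted p = 0.000132) in NT liver, and by 1.89 ± 0.29 and 2.06 ± 0.44 in nodules (adjusted p = 0.000711 and 0.00335). At 20 weeks the NT estimate was 1.57 ± 0.61 with an adjusted p of 0.0987, and without H28 it was 0.80 with an adjusted p of 0.169.

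Ciita, the class II coactivator, had 4.23, 4.59, 3.20 and 3.00 CPM without DEN and 8.08, 8.24, 7.11 and 6.95 CPM in NT liver at 8 weeks. At 14 weeks it had 3.12, 2.85, 2.62 and 3.02 CPM without DEN and 8.34, 6.01, 5.02 and 5.65 CPM in NT liver. At 20 weeks it had 3.27, 2.47, 2.09 and 1.93 CPM without DEN and 5.44, 3.10, 4.02 and 12.4 CPM in NT liver. H28 was again the highest of all NT livers, and only H25 fell into the control range. Nodules had 4.10, 6.61 and 8.27 CPM (lowest, median and highest) at 14 weeks and 4.05, 5.58 and 11.9 CPM at 20 weeks, all above the highest control of their time. Ciita rose by 1.01 ± 0.15 and 1.12 ± 0.16 in NT liver at 8 and 14 weeks (edgeR adjusted p = 0.000743 and 0.000255) and by 1.08 ± 0.21 and 1.46 ± 0.27 in nodules (adjusted p = 0.00243 and 0.00173). The NT value at 20 weeks, 1.35 ± 0.45, had an adjusted p of 0.0521, and without H28 it was 0.76 with an adjusted p of 0.0453.

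**Figure D2:**
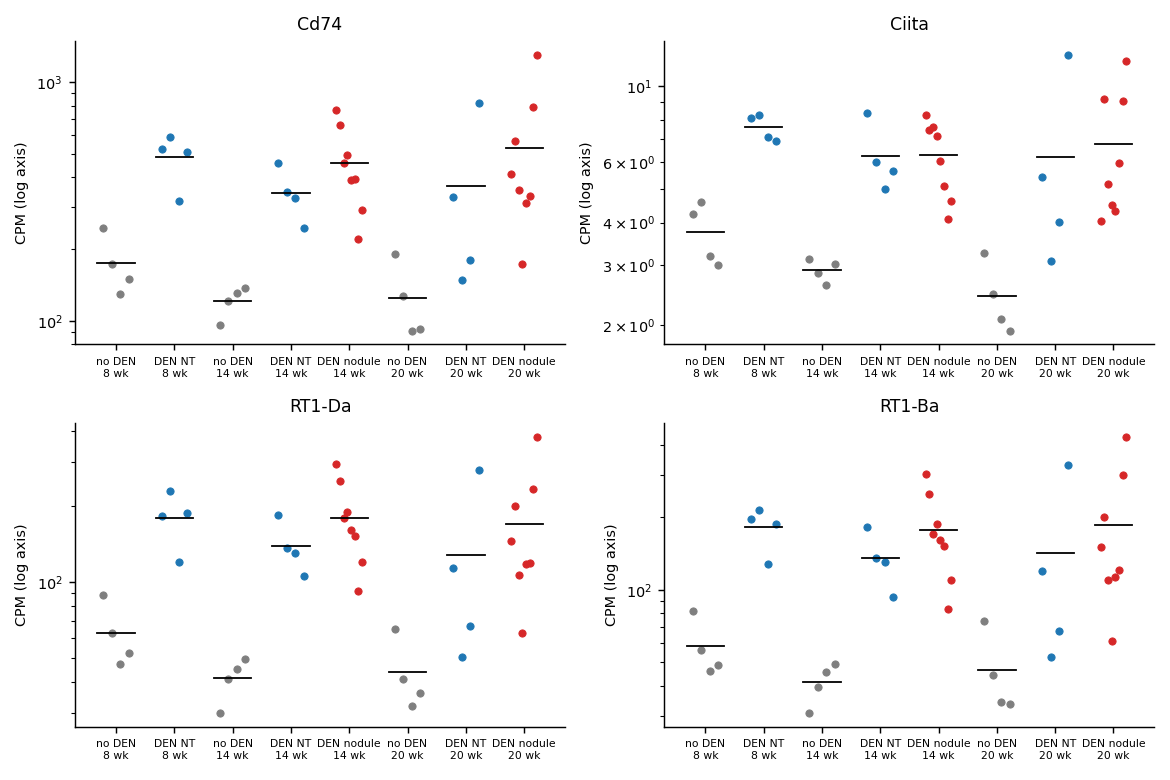
Levels of Cd74, Ciita, RT1-Da and RT1-Ba in CPM on log axes, with a point for each library in grey (no DEN liver), blue (NT liver) or red (nodule) at 8, 14 and 20 weeks. The 4 genes show 1 pattern, with DEN-treated libraries apart from controls at 8 and 14 weeks and a wide spread in NT liver at 20 weeks, such as 148 to 819 CPM for Cd74.

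RT1-DOa and RT1-DOb, the chains of the RT1-DO modulator of peptide loading, held 0.149% and 0.128% of the class II counts. RT1-DOa rose in NT liver at all 3 times (1.24 ± 0.29, 0.78 ± 0.30 and 1.26 ± 0.43; edgeR adjusted p = 0.00712, 0.0454 and 0.0462) and in nodules at 20 weeks (1.42 ± 0.47, adjusted p = 0.0259). Its NT call at 20 weeks was lost without the control H15 or H16. RT1-DOb rose in NT liver at 8 weeks and in nodules at both times. The rows of the RT1-DM chains, RT1-DMa and RT1-DMb, never exceeded 4 and 10 counts, and RT1-Db2 never exceeded 4, so that no difference was detectable there at this depth. Ctss, the protease of Cd74, passed at 14 weeks in NT liver (0.56 ± 0.20, adjusted p = 0.0402) and in nodules (0.68 ± 0.24, adjusted p = 0.0392), while its other 3 values were 0.53, 0.50 and 0.37.

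By count, with a change called at an edgeR adjusted p of at most 0.05 and a log2 difference of at least 0.5 in size, all 6 of the tested class II rows rose in NT liver at 8 weeks. At 14 weeks 5 of the 6 did, and at 20 weeks 1 did, RT1-DOa. In nodules 5 of 6 rose at 14 weeks and 6 of 6 at 20 weeks. Among all genes tested, 16.5%, 22.8% and 14.3% rose in NT liver at 8, 14 and 20 weeks, and 23.9% and 23.6% in nodules at 14 and 20 weeks. Median log2 differences of the class II rows were 1.58, 1.60 and 1.52 in NT liver and 1.94 and 1.93 in nodules. Without H28 the values at 20 weeks were 0.81 in NT liver and 1.42 in nodules. The medians stood beside 0.31, 0.26, 0.25, 0.32 and 0.27 for class I in the same order. The stricter rule asked for a log2 difference of at least 1 and an adjusted p of at most 0.01. Under it 8 of 40, 10 of 42 and 3 of 42 tested members rose in NT liver at the 3 times, beside 7.29%, 13.1% and 4.89% of all genes. The counts at 14 and 20 weeks include RT1-M4 and RT1-M5, which could pass the filter on low counts only through DEN-treated rats. RT1-M3-1 was the only other member called by this rule at 20 weeks.

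The 20 week count for NT liver depended on the rats and the fit. Of 42 tested members, 7 rose at 20 weeks, but 3 did so without the control H15 or H16 and 4 without the control H14. These counts include RT1-M4 and RT1-M5, which could pass the filter on low counts only through DEN-treated rats, so their calls are no support. The share of all genes that rose also fell, from 14.3% to 10.8%, 9.18% and 11.2% without H15, H16 and H14. When all 8 groups shared 1 estimate of the spread, 12 rose, among them Cd74, Ciita, RT1-Ba, RT1-Bb, RT1-Da, RT1-Db1 and RT1-DOb, beside 15.7% of all genes. RT1-T24-1 and Psmb10 lost their calls in that fit.

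Most class I rows passed no test, although a few rose. Of 21 tested class I rows 5 rose at 8 weeks in NT liver, of 23 tested 6 rose and 1 fell at 14 weeks, and 5 of 23 rose at 20 weeks. In nodules 8 rose and 1 fell at 14 weeks, and 7 rose and 1 fell at 20 weeks, each of 23. Among all genes tested, 16.5%, 22.8% and 14.3% rose in NT liver and 23.9% and 23.6% in nodules, and 5.21%, 9.85% and 3.82% fell in NT liver and 15.2% and 15.2% in nodules. RT1-M4 and RT1-M5, with at most 1 count in each no DEN library, could pass the filter on low counts only through DEN-treated rats and so had to differ. Without them 4 of 21 class I rows rose in NT liver at 14 weeks and 3 of 21 at 20 weeks, and 6 of 21 and 5 of 21 rose in nodules. The class I counts were not read as a property of the class. The classical genes RT1-A1 and RT1-A2 passed in none of these 5 comparisons. The rows with the most class I counts were RT1-S3 with 25.4%, RT1-A2 with 23.6%, RT1-A1 with 17.4%, RT1-CE16 with 10.98% and RT1-CE5 with 9.34%. These are shares of counts, which also depend on the length of the transcripts.

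RT1-S3, a non-classical class I row, was the member that fell. It had 419, 378, 406 and 392 CPM without DEN and 344, 374, 315 and 284 CPM in NT liver at 8 weeks. At 14 weeks the controls had 423, 435, 428 and 342 CPM and the NT livers 331, 162, 171 and 222 CPM, with F06 close to the lowest control. At 20 weeks the controls had 352, 348, 362 and 371 CPM and the NT livers 378, 285, 242 and 273 CPM, with F03 above every control. Nodules ranged over 122, 156 and 270 CPM (lowest, median and highest) at 14 weeks and over 125, 190 and 283 CPM at 20 weeks, all below every control. RT1-S3 fell by 0.87 ± 0.22 in NT liver at 14 weeks (edgeR adjusted p = 0.00839), by 1.25 ± 0.18 in nodules at 14 weeks (adjusted p = 0.000471) and by 0.87 ± 0.19 in nodules at 20 weeks (adjusted p = 0.00366). Its NT values at 8 and 20 weeks were -0.29 and -0.29, below the size required.

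RT1-M3-1, of the non-classical M series, rose in all 5 comparisons with no DEN liver. At 8 weeks there were 2.72, 2.69, 2.21 and 2.59 CPM without DEN and 5.53, 7.04, 5.91 and 6.41 CPM in NT liver. The values at 14 weeks were 2.62, 1.98, 1.67 and 1.85 CPM without DEN and 5.92, 7.00, 7.28 and 5.76 CPM in NT liver. Those at 20 weeks were 3.27, 2.03, 1.85 and 1.80 CPM without DEN and 5.01, 4.12, 4.53 and 6.79 CPM in NT liver. No NT value overlapped with the controls, and neither did any nodule, with 6.34, 7.33 and 9.11 CPM (lowest, median and highest) at 14 weeks and 4.86, 6.63 and 8.47 CPM at 20 weeks. The log2 differences were 1.28 ± 0.13, 1.68 ± 0.16 and 1.19 ± 0.23 in NT liver and 1.85 ± 0.17 and 1.56 ± 0.21 in nodules (edgeR adjusted p = 8.6e-05, 1.91e-05, 0.00457, 4.92e-05 and 0.000328). RT1-M2 also rose in all 5 comparisons, by 0.68, 0.85, 1.09, 0.85 and 0.96, and RT1-N3 rose in the same comparisons except NT liver at 20 weeks, by 0.88, 0.76, 1.23 and 0.86. The call of RT1-M2 in NT liver at 20 weeks was lost without the control H15 or H16.

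RT1-T24-1, of the T series, did not pass at 8 weeks, with 1.21, 1.06, 1.14 and 0.876 CPM without DEN and 1.20, 1.17, 1.37 and 1.43 CPM in NT liver (log2 difference 0.26 ± 0.19). Values at 14 weeks were 0.718, 0.907, 0.800 and 0.960 CPM without DEN and 1.23, 3.98, 3.47 and 1.61 CPM in NT liver. At 20 weeks it had 1.07, 1.15, 0.680 and 1.12 CPM without DEN and 1.41, 1.56, 1.85 and 3.96 CPM in NT liver. All NT livers were above the controls at these later times, H21 and H22 by the most at 14 weeks and H28 at 20 weeks. The nodules had 1.88, 3.25 and 6.96 CPM at 14 weeks and 1.78, 3.91 and 20.8 CPM at 20 weeks (lowest, median and highest). RT1-T24-1 rose by 1.61 ± 0.38 and 1.12 ± 0.36 in NT liver at 14 and 20 weeks (edgeR adjusted p = 0.00497 and 0.0404) and by 2.27 ± 0.38 and 2.32 ± 0.55 in nodules (adjusted p = 0.00116 and 0.00545). The 20 week nodule value ran from 1.54 to 2.76 over the alternative fits and kept its call. The 20 week NT call was lost without any of H13, H14, H15, H16, H26 or H28, with log2 values of 0.68 (without H28) to 1.21, and in the fit with all 8 groups (1.09).

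RT1-M5 and RT1-M4, also of the M series, were at or near 0 counts without DEN. RT1-M5 was at 0 in every no DEN liver at 14 weeks and had at most 1 count in those at 8 and 20 weeks. NT liver had 0.323, 0.154, 0.300 and 0.179 CPM at 8 weeks (5 to 10 counts), 0.798, 2.78, 3.61 and 2.13 CPM at 14 weeks, and 1.01, 0.824, 1.72 and 1.53 CPM at 20 weeks. The nodules had 1.64, 3.58 and 16.6 CPM at 14 weeks and 1.73, 3.41 and 9.31 CPM at 20 weeks (lowest, median and highest), and nodules 1 and 2 of F06 gave 16.6 and 1.64 CPM. Against a floor of 3 counts per no DEN library, RT1-M5 was at least 21.01-fold and 8.69-fold higher in NT liver at 14 and 20 weeks and at least 57.0-fold and 28.5-fold higher in nodules. RT1-M4 had mean levels of 2.0 ± 1.15 and 0.970 ± 0.586 CPM in the NT livers of 14 and 20 weeks and 3.10 ± 1.81 and 2.91 ± 2.19 CPM in the nodules (SD, n = 4 rats), at least 18.04-fold, 6.63-fold, 27.98-fold and 19.9-fold above the same floor. In the nodules of 20 weeks H26 had 6.13 CPM, against 2.11, 1.18 and 2.23 CPM in F03, H25 and H28. Both had been tested only where DEN-treated rats brought them past the filter, so their calls are no support beyond these levels. At 8 weeks neither had enough counts to be tested.

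**Figure D3:**
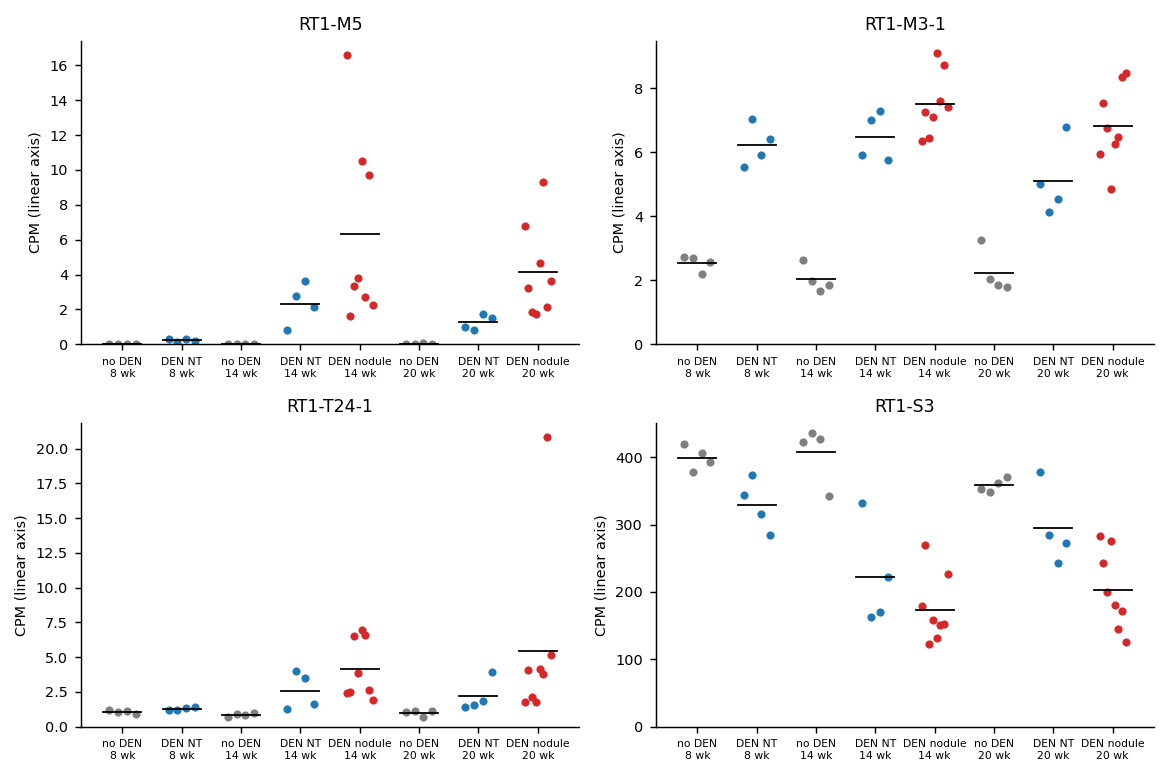
Levels of the class I rows RT1-M5, RT1-M3-1, RT1-T24-1 and RT1-S3 in CPM on linear axes that start at 0, with a point for each library in grey (no DEN liver), blue (NT liver) or red (nodule) at 8, 14 and 20 weeks. RT1-M5 is at most 0.0486 CPM without DEN and up to 16.6 CPM in a nodule, RT1-M3-1 is apart in every group, and RT1-S3 falls to 122 CPM in a nodule at 14 weeks.

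Of the class I partners, the immunoproteasome subunits did not move alike. Psmb9 had 86.0, 64.3, 68.8 and 64.8 CPM without DEN and 110, 126, 96.1 and 116 CPM in NT liver at 8 weeks. At 14 weeks it had 57.4, 65.6, 64.6 and 55.1 CPM without DEN and 88.7, 86.0, 91.5 and 88.2 CPM in NT liver. At 20 weeks it had 83.9, 64.3, 55.2 and 54.4 CPM without DEN and 76.1, 64.9, 64.4 and 131 CPM in NT liver. The groups were apart at 8 and 14 weeks and overlapped at 20 weeks. Nodules had 83.5, 108 and 158 CPM at 14 weeks and 64.7, 89.9 and 155 CPM at 20 weeks (lowest, median and highest). Psmb9 rose by 0.65 ± 0.11 and 0.56 ± 0.07 in NT liver at 8 and 14 weeks (edgeR adjusted p = 0.0014 and 0.000109) and by 0.86 ± 0.14 and 0.62 ± 0.22 in nodules (adjusted p = 0.000813 and 0.0352), and its NT value at 20 weeks was 0.39 ± 0.26. The 20 week nodule call was lost without F03, H14, H15, H16 or H28 (0.41 without H28) and with nodule 2 alone (0.55).

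Psmb10 had 40.9, 30.1, 32.8 and 25.6 CPM without DEN and 40.9, 45.9, 34.2 and 44.5 CPM in NT liver at 8 weeks. At 14 weeks it had 27.5, 32.9, 31.3 and 27.7 CPM without DEN and 38.8, 42.5, 37.5 and 35.0 CPM in NT liver. At 20 weeks it had 27.3, 23.7, 26.7 and 25.9 CPM without DEN and 35.9, 30.5, 31.8 and 50.8 CPM in NT liver. All NT livers were above the controls at 14 and 20 weeks. Nodules had 40.1, 43.2 and 69.0 CPM at 14 weeks and 30.1, 41.2 and 61.1 CPM at 20 weeks (lowest, median and highest). Psmb10 rose in nodules, by 0.66 ± 0.15 and 0.72 ± 0.17 (edgeR adjusted p = 0.00541 and 0.00476), and in NT liver at 20 weeks by 0.52 ± 0.16 (adjusted p = 0.0321), near the size required. This last call was lost without any of F03, H13, H14, H15, H16 or H28 (0.32 without H28), and also with DESeq2 (0.49), RLE scaling (0.49) and a fit with all 8 groups (0.50).

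Psmb8, the remaining immunoproteasome subunit, passed nowhere. It had 150, 146, 141 and 138 CPM without DEN and 151, 171, 123 and 135 CPM in NT liver at 8 weeks. The values were 118, 129, 122 and 128 against 119, 102, 110 and 111 CPM at 14 weeks, and 140, 124, 109 and 135 against 121, 105, 94.2 and 145 CPM at 20 weeks, in the same order. Nodules had 88.4, 123 and 152 CPM at 14 weeks and 85.3, 110 and 167 CPM at 20 weeks (lowest, median and highest). All groups overlapped with their controls, and the log2 differences ran from -0.16 to -0.00.

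B2m, the light chain of class I, had 3018, 2594, 2427 and 2756 CPM without DEN and 3052, 3323, 2764 and 2815 CPM in NT liver at 8 weeks. At 14 weeks the controls had 2672, 2511, 2764 and 2714 CPM and the NT livers 2389, 1898, 2123 and 2032 CPM, all lower. At 20 weeks the controls had 3256, 2766, 2581 and 2766 CPM and the NT livers 3151, 2499, 2268 and 2824 CPM. Nodules had 1805, 2133 and 2859 CPM at 14 weeks and 1876, 2271 and 3791 CPM at 20 weeks (lowest, median and highest). No comparison reached the size required, with -0.33 ± 0.10 in NT liver at 14 weeks (edgeR adjusted p = 0.0145) as the value farthest from 0.

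Tap1, a chain of the peptide transporter, had 64.8, 62.3, 63.9 and 51.8 CPM without DEN and 68.3, 76.1, 63.0 and 73.0 CPM in NT liver at 8 weeks. It had 44.3, 57.4, 58.7 and 54.5 against 55.5, 49.4, 54.5 and 52.6 CPM at 14 weeks, and 53.6, 50.3, 56.2 and 44.6 against 48.6, 44.5, 40.8 and 92.6 CPM at 20 weeks, in the same order. Nodules had 44.6, 56.7 and 63.2 CPM at 14 weeks and 43.8, 51.7 and 88.7 CPM at 20 weeks. Tap1 passed nowhere, and H28 alone was high at 20 weeks. Tap2 never exceeded 24 counts. Tapbp, Calr, Canx, Pdia3 and Erap1 also passed in none of the 5 comparisons with no DEN liver. Canx came closest in nodules, at -0.48 ± 0.13 and -0.39 ± 0.12 at 14 and 20 weeks (edgeR adjusted p = 0.0118 and 0.0188), under the size required. In all, 1 of 10 tested class I partners rose in NT liver at each time and 2 of 10 in nodules at each time, near the 16.5%, 22.8%, 14.3%, 23.9% and 23.6% of all genes given the small number of partners.

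**Figure D4:**
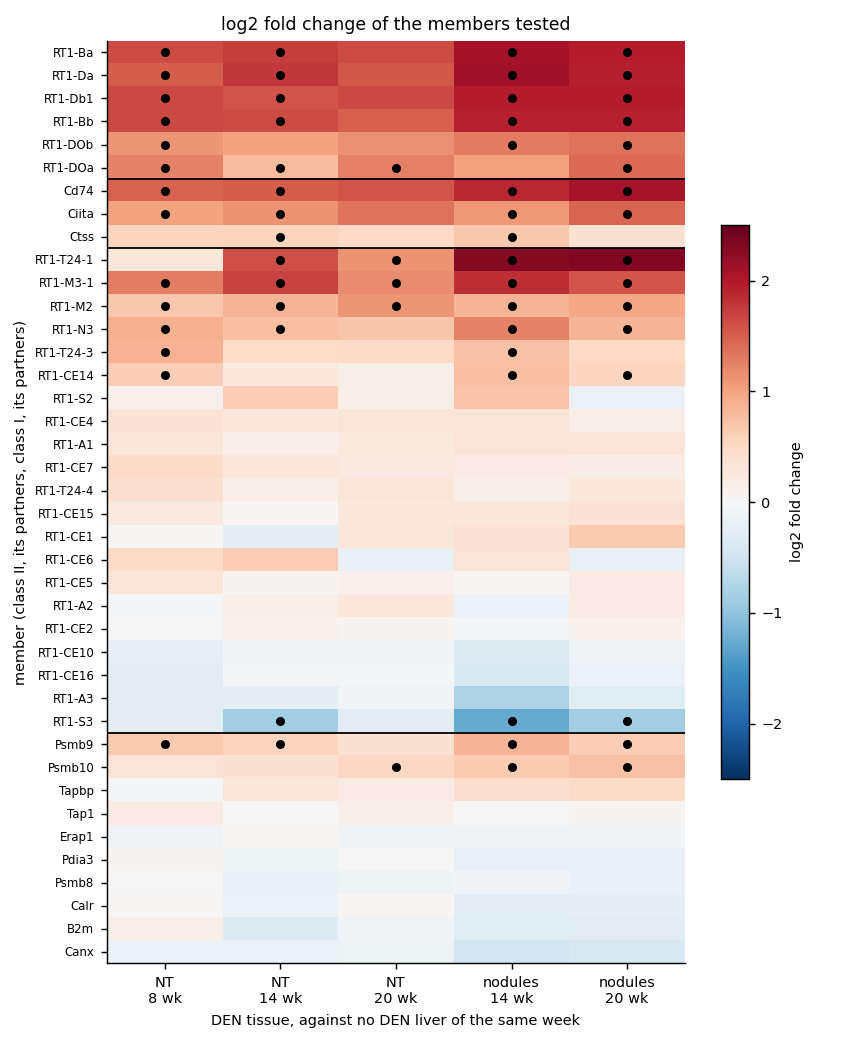
Log2 differences from no DEN liver of the tested members (rows, by class) in NT liver at 8, 14 and 20 weeks and nodules at 14 and 20 weeks (columns), in colour, with a black dot where a change was called. RT1-M4 and RT1-M5 are left out because their controls hold at most 1 count. Class II rows with Cd74 and Ciita have positive values in all columns, for instance 1.52 to 2.09 for RT1-Da, but in NT liver at 20 weeks RT1-DOa alone among them was called, while most class I rows stay near 0.

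Genes of the wider pathways, from lists written by hand, were counted in the same fits, in which 16.5%, 22.8% and 14.3% of all genes rose in NT liver and 23.9% and 23.6% in nodules. The shares that fell were 5.21%, 9.85% and 3.82% in NT liver and 15.2% and 15.2% in nodules. Of the other class II pathway genes tested, 5 of 20 rose at 8 weeks, 10 of 21 rose and 1 fell at 14 weeks, and 6 of 20 rose at 20 weeks in NT liver, while 9 rose in nodules at each time with 2 and 1 falls of 21. Cd40, a costimulatory receptor of antigen-presenting cells, rose by 1.09, 0.96 and 1.11 in NT liver and by 1.15 and 1.09 in nodules. Lgmn, an endosomal protease, rose by 1.24 and 0.85 in NT liver at 14 and 20 weeks and by 1.45 and 1.62 in nodules. Rfx5, a subunit of the factor that binds the X box, rose by 1.06 and 1.06 in nodules. Of the other class I pathway genes, 1 of 16 rose at 8 weeks, 2 of 16 rose and 1 fell at 14 weeks and 1 of 16 rose at 20 weeks in NT liver, and in nodules 3 of 17 rose at each time with 4 and 2 falls. Socs1, an inhibitor of interferon signalling, rose by 1.07, 1.22, 1.10, 1.51 and 1.79. Azgp1, a secreted protein with a class I-like fold, fell by 1.06 in NT liver at 14 weeks and by 1.26 and 1.21 in nodules. The summed level of the other class I pathway genes in every DEN rat was below that in every no DEN rat of the same time, with ratios of the means of 0.916, 0.706 and 0.866 in NT liver and 0.639 and 0.683 in nodules. Such a sum is weighted by the abundant genes. The median log2 difference of the tested genes was -0.08, -0.11 and -0.001 in NT liver and -0.26 and -0.18 in nodules. Mr1, a class I-like molecule outside the MHC, rose by 1.60 and 1.46 in nodules. The constitutive proteasome and its activators gave 1 call, Psme1, at 0.50 in nodules at 20 weeks.

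Markers of leukocytes also rose over no DEN liver. The counts of cell markers below stand beside the same shares of all genes that rose (16.5%, 22.8%, 14.3%, 23.9% and 23.6%). All 5 leukocyte markers (Ptprc, Cd53, Coro1a, Laptm5 and Lcp1) rose in each of the 5 comparisons. Their summed level was 58.4 to 94.6 CPM without DEN and 139 to 159 CPM in NT liver at 8 weeks, 48.4 to 64.4 and 91.6 to 165 CPM at 14 weeks, and 41.2 to 67.7 and 72.4 to 120 CPM at 20 weeks. In nodules it was 94.2 to 174 and 97.8 to 130 CPM at 14 and 20 weeks over rats. The ratios of the means were 2.02, 1.98 and 1.90 in NT liver and 2.18 and 2.15 in nodules, against class II ratios of 3.07, 3.17, 2.99, 4.13 and 3.95. Without H28 the leukocyte and class II ratios were 1.77 and 1.74 in NT liver at 20 weeks and 2.15 and 2.78 in nodules at 20 weeks. None of the 5 defining markers was at or near 0 in any group.

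Dendritic cell markers rose in 5 of 7, 5 of 6 and 1 of 6 tested genes in NT liver and in 4 of 7 and 5 of 6 in nodules. Clec10a rose by 1.48, 1.40, 0.87, 1.76 and 1.59. Their summed level over the 5 comparisons had ratios of 1.97, 1.65, 1.54, 1.92 and 1.86, with ranges of 9.16 to 11.9 CPM without DEN and 20.0 to 23.6 CPM in NT liver at 8 weeks and of 10.2 to 10.5 and 15.8 to 19.4 CPM at 14 weeks. At 20 weeks it was 8.94 to 10.8 CPM without DEN, and in nodules it was 16.4 to 25.7 and 13.8 to 23.3 CPM at 14 and 20 weeks. In NT liver at 20 weeks it ran from 10.9 to 22.2 CPM, with 15.5 CPM in F03 and 22.2 CPM in H28, while the leukocyte sum was 117 and 120 CPM and the class II sum 445 and 1130 CPM in these rats. In the nodules of 20 weeks the dendritic sum was highest in F03 (23.3 CPM, against 20.1 CPM in H28), while the class II sum was 654 CPM in F03 and 1254 CPM in H28. Macrophage and Kupffer cell markers rose in 2, 2, 4, 4 and 4 of 11 genes, with ratios of 1.26, 1.22, 1.39, 1.23 and 1.20 and overlapping rats each time. Their sum was 740 to 1395 and 1141 to 1388 CPM without DEN and in NT liver at 8 weeks, 572 to 812 and 618 to 1342 CPM at 14 weeks, and 483 to 879 and 709 to 1282 CPM at 20 weeks, and it was 668 to 1230 and 711 to 938 CPM in nodules. B cell markers rose in 3, 1, 1, 0 and 1 of 4 genes, with ratios of 1.68, 1.54, 1.68, 1.43 and 1.47. T and NK cell markers rose in 5 of 10, 2 of 8, 5 of 9, 4 of 11 and 6 of 11 genes. Ifng was at or near 0 in no DEN liver and in NT liver at 8 weeks. Bile duct markers rose in 3, 5, 5, 5 and 5 of 5 genes, with ratios of the summed level of 1.56, 3.37, 2.40, 4.86 and 6.65. The bile duct sum was 19.9 to 23.3 CPM without DEN and 30.4 to 38.8 CPM in NT liver at 8 weeks, 16.4 to 24.3 and 40.4 to 90.5 CPM at 14 weeks, and 18.04 to 22.7 and 35.7 to 57.2 CPM at 20 weeks, and it was 65.3 to 118 and 77.1 to 186 CPM in nodules. Sinusoidal endothelium markers rose in 4, 4, 3, 4 and 3 of 5, with ratios of the summed level of 1.56, 1.84, 1.89, 1.78 and 1.85. Hepatocyte markers fell in 2, 5, 1, 6 and 6 of 8 and rose in 0, 1, 1, 1 and 1. Of all genes, 5.21%, 9.85%, 3.82%, 15.2% and 15.2% fell. The part of these cell types in the class II result was not tested.

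Nodules and NT liver of DEN-treated rats were compared within the same weeks. In the fit of these 2 groups without regard to the rat, no member passed at 14 weeks (0 of 42) or at 20 weeks (0 of 44), and 0% of all genes did so in either direction and at either time with edgeR, although 1348 and 2767 genes had an unadjusted p under 0.05. DESeq2 called 35 genes in all at 14 weeks, and 646 higher and 256 lower at 20 weeks. At 20 weeks other edgeR fits without the block also made calls, with 803 genes higher and 293 lower when all 8 groups were fitted, 115 and 103 with nodule 1 alone, and 255 and 190 without H25. With the rat as a block, which matches each rat's nodules with its own NT liver, 8 of 44 members were higher and 1 was lower in nodules at 20 weeks, beside 9.21% and 5.46% of all genes, and at 14 weeks no gene at all passed (0 of 11466), members included. Cd74 was higher by 0.62 ± 0.11 (edgeR adjusted p = 0.00115), and the pairs were RT1-Ba with RT1-Bb at 0.52 and 0.60 and RT1-Da with RT1-Db1 at 0.55 and 0.50. RT1-M4, RT1-M5 and RT1-T24-1 were higher by 1.60, 1.61 and 1.06, and RT1-S3 was lower, at -0.60 ± 0.11 (adjusted p = 0.00205). In the same blocked fit 3 of 5 bile duct markers and 1 of 8 dendritic cell markers were higher, 4 of 8 hepatocyte markers and 2 of 11 macrophage and Kupffer cell markers were lower, and 0 of 5 leukocyte markers passed. The bile duct sum was 2.78 times that of NT liver, with every rat above, and the part of these cells in the result was not tested. The mean of a rat's nodules over its own NT liver for Cd74 was 1.56, 1.37, 1.19 and 1.04 in F06, H21, H22 and H23 at 14 weeks and 1.49, 1.78, 1.80 and 1.28 in F03, H25, H26 and H28 at 20 weeks. All 8 rats were above 1. Ciita was above 1 in 5 of the 8 rats and below 1 in F06, H23 and H28 (0.941, 0.772 and 0.845), and it did not pass in the blocked fit at 20 weeks (0.23 ± 0.14, edgeR adjusted p = 0.218).

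Times were compared by testing the change of the effect itself. From 8 to 14 weeks in NT liver 1 of the members changed, beside 8.96% of all genes. This was B2m, whose effect moved by -0.46 ± 0.13 (edgeR adjusted p = 0.0318), and no member was called in a fit with all 8 groups or without any of F09, F10, H06, H07, H08, H09, H11, H12 or H21, where 1.3% and 4.73% to 6.87% of all genes were called. From 14 to 20 weeks no member passed in NT liver, beside 0.738% of all genes, or in nodules, beside 0.0862%. The changes for Cd74 were 0.04 ± 0.31, 0.05 ± 0.64 and 0.15 ± 0.56 (SE). The size of change that could be detected at this number of rats was not tested, so a missing call does not show an equal effect.

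Nodules 1 and 2 of F06 and nodule 1 of F03, picked after their values were seen, stood apart in several class I rows. RT1-A2, a classical class I heavy chain, was at 64.5, 141 and 137 CPM there, against 212 to 362 CPM in the other 13 nodules and 209 to 300 CPM in the 24 livers. RT1-A3 was at 3.98, 9.92 and 9.31 CPM against 20.3 to 44.1 CPM in the other nodules, and RT1-CE16 at 28.1, 70.5 and 57.9 CPM against 95.3 to 134 CPM. Relative to the NT liver of the same rat, RT1-A2 was at 0.251, 0.548 and 0.463 and RT1-CE16 at 0.231, 0.580 and 0.462. RT1-A1 was at 270, 216 and 298 CPM against 149 to 239 CPM in the other nodules, so that nodule 2 of F06 lay within their range. These levels were 1.55, 1.24 and 1.46 times the NT liver of the same rat. Nodule 2 of F03 did not share this, with RT1-A2 in the range of the other nodules. The class II sums of the nodules of F06, 1100 and 918 CPM, were the highest of 14 weeks, while that of nodule 1 of F03, 560 CPM, lay within the range of the nodules of 20 weeks. These nodules include the library with the most pairs outside genes (nodule 1 of F06, 34.5%) and the one with the most multiply aligned pairs (nodule 1 of F03, 16.3%), and their part in the result was not tested.

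**Figure D5:**
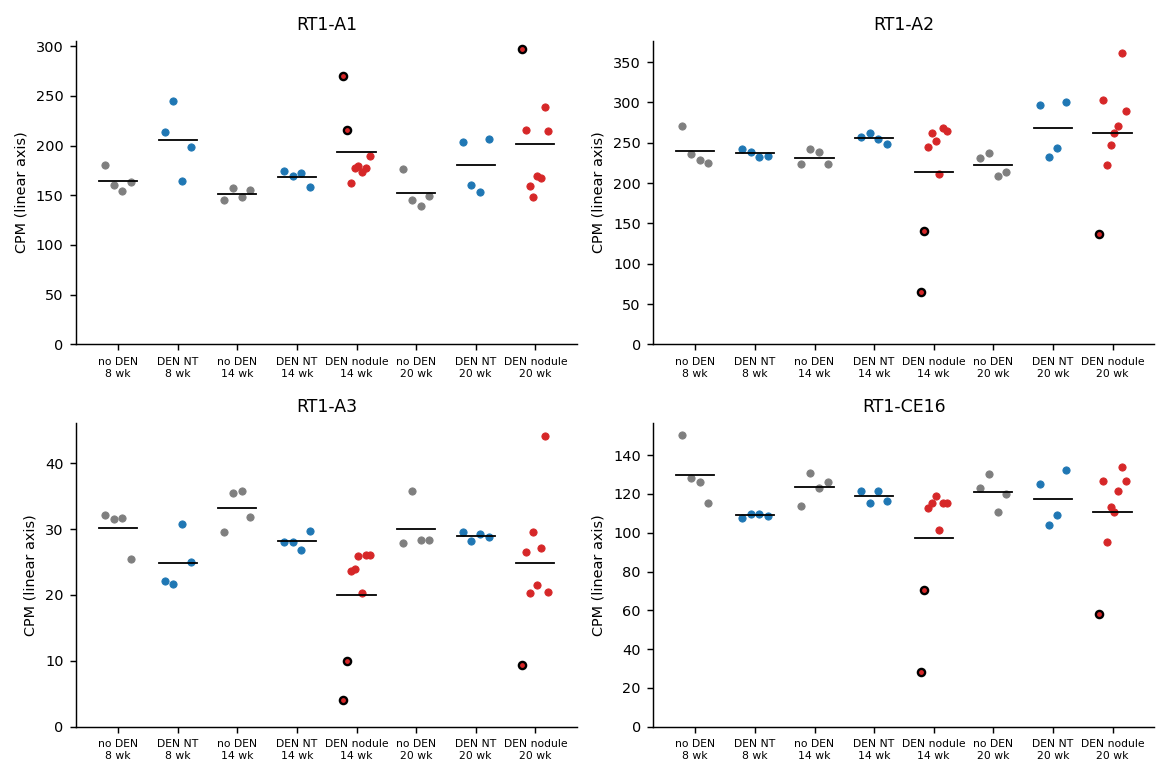
Levels of RT1-A1, RT1-A2, RT1-A3 and RT1-CE16 in CPM on linear axes, with a point for each library in grey (no DEN liver), blue (NT liver) or red (nodule) at 8, 14 and 20 weeks and rings around nodules 1 and 2 of F06 and nodule 1 of F03. The ringed points lie below all others for RT1-A2, RT1-A3 and RT1-CE16, with 64.5 to 141 CPM for RT1-A2, while 270 and 298 CPM for RT1-A1 are above all others.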

How the data were processed

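Liver RNA was measured by stranded, poly(A)-selected, paired-end sequencing. The authors aligned the reads to rn6 with STAR 2.7.1a and counted them with HTSeq by reverse strand, and the deposited counts per gene are raw whole numbers. Pairs that aligned to several places were not counted. The authors tested with DESeq2 1.22.2.

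Counts were scaled by TMM and tested with edgeR 4.0.16 (quasi-likelihood, robust, R 4.3.3), with filterByExpr, using only the 2 groups of a comparison and the summed nodules of each rat, and Benjamini-Hochberg adjustment over all genes tested. A gene was called at an adjusted p of at most 0.05 and a log2 difference of at least 0.5 in size, and a change between weeks by the adjusted p alone. The SE of a log2 difference came from its F statistic. The p-values rest on the spread between the 4 rats of a group, moderated over all genes. In the fit with the rat as a block they rest on the spread of differences within rats. Without the block, nodules and NT liver of the same 4 rats were treated as independent. Depth ranged from 20528515 to 160622633 counted pairs. Scripts were tested on simulated data.

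Each liver, and the lowest, median and highest nodule, is given for Cd74, Ciita, RT1-Da, RT1-Ba, B2m, Tap1 and the 3 immunoproteasome subunits. The RT1 rows with the largest called rises and falls (2 of each per comparison, mean of at least 1 CPM) were also named. Of these, RT1-M4 is given by group means, RT1-Bb and RT1-Db1 by log2 differences, and RT1-M5 in no DEN liver by counts. The members and lists were chosen with earlier results of these data known. Because 8 rats gave both tissues, nodules were matched with NT liver by rat (correlation of their deviations from the group means, r = 0.367 to 0.538), and an alternative used the rat as a block. Other alternatives were DESeq2 1.42.0, RLE scaling, no filter, all 8 groups in 1 fit, single nodules, a stricter rule, and leaving out each rat or the F rats.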

Additional observations from a re-analysis of the deposited data

Results flagged for a closer look

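Of 144 sets of values for named members and class sums within a group, 13 had a sample far from the others. Chance alone does so in about 1 in 20 sets of independent values. That rate does not apply to the 8 nodules of a group, which came from 4 rats, or to single counts among zeros. Among the nodules at 20 weeks these were B2m in nodule 1 of F03, at 3791 CPM with the next at 2640 CPM, RT1-T24-1 in nodule 1 of H28, at 20.84 CPM with the next at 5.12 CPM, and RT1-M4 in nodule 2 of H26, at 9.803 CPM with the next at 2.95 CPM. In NT liver at 20 weeks H28 was far above the others for Tap1, at 92.6 CPM with the next at 48.6 CPM, and for RT1-T24-1, at 3.958 CPM with the next at 1.85 CPM.

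Among no DEN livers, RT1-S3 was low in H12 at 14 weeks (342.3 CPM, next 423 CPM), RT1-M3-1 was high in H13 at 20 weeks (3.267 CPM, next 2.03 CPM), and RT1-T24-1 was low in H15 at 20 weeks (0.68 CPM, next 1.07 CPM). A single count set the 3 values that stood out among zeros, which were 0.04857 CPM of RT1-M5 in H15 at 20 weeks, 0.04171 CPM of RT1-M4 in H08 at 8 weeks and 0.04296 CPM of RT1-M4 in H16 at 20 weeks. The class I sum was high in the no DEN liver of H05 at 8 weeks (1256 CPM, next 1118 CPM) and in the NT liver of F06 at 14 weeks (1125 CPM, next 968 CPM).

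The effect of DEN on B2m in NT liver differed between 8 and 14 weeks, with a change of -0.4644 on the log2 scale (edgeR adjusted p = 0.0318).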

How the results depend on the processing

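The stricter rule lowered the members called in NT liver to 8, 10 and 3 at 8, 14 and 20 weeks. Of all genes, 7.29%, 13.1% and 4.89% rose under it. The counts at 14 and 20 weeks include RT1-M4 and RT1-M5. A fit with all 8 groups gave 12 at 20 weeks in NT liver, 3 for nodules against NT liver at 20 weeks (RT1-M4, RT1-M5 and RT1-T24-1) and 0 for the change from 8 to 14 weeks. In the same fits 19.6%, 9.45% and 1.3% of all genes were called. DESeq2 gave 2 (RT1-M4 and RT1-M5) and 3 for the last 2 of these, and the rat as a replicate block gave 9 for nodules against NT liver at 20 weeks. The shares of all genes called were 6.37%, 10.9% and 14.7% in the same order. The block was run only for nodules against NT liver, and it left the count at 14 weeks at 0. Without the F rats 3 members changed from 8 to 14 weeks and 1 (RT1-S3) from 14 to 20 weeks in NT liver, beside 9.53% and 1.61% of all genes. Leaving out each rat gave 12 to 15, 14 to 16 and 3 to 9 members in NT liver at 8, 14 and 20 weeks, 14 to 21 and 15 to 20 in nodules at 14 and 20 weeks, 0 to 0 and 0 to 1 (without H25) for nodules against NT liver, and 0 to 5 (5 without F06), 0 to 1 (without F06) and 0 to 0 for the changes between weeks. The share of all genes called moved too over the rats left out. It was 17.5% to 26.8%, 30.7% to 34.7% and 12.7% to 19.2% in NT liver and 34.8% to 41.5% and 34.5% to 42% in nodules. For nodules against NT liver it was 0% and 0% to 3.84%. For the changes between weeks it was 4.73% to 16.5%, 0.274% to 3.6% and 0.0508% to 0.13%. Without F06 15.6% and 3.41% of all genes changed in NT liver, against 8.96% and 0.738% with it. The excess of class II over class I kept its direction under RLE scaling, without the most abundant member of each class and without each rat, at 1.54 to 1.79, 1.70 to 1.95 and 0.78 to 1.55 in NT liver, 1.99 to 2.56 and 1.58 to 2.14 in nodules, and 0.27 to 0.60 and 0.59 to 0.80 for nodules against NT liver over the rats left out. Of 1462 values of named genes under alternatives, 1377 kept their direction and their side of the call rule, called or not, while 24 lost a call, 28 gained one, and 33 uncalled values changed sign. The cause was not tested. RT1-M4 and RT1-M5 have at most 1 count per no DEN library, so depth limits their folds to lower bounds, and nodule 2 alone leaves out 2 of the 3 nodules with low RT1-A2.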
